A study of Homo sapiens with 7 samples.

Results

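Receptor tyrosine kinases are the cell surface receptors through which growth factors reach the inside of the cell, and 48 genes of this class were followed on the arrays, 46 receptors together with KITLG, the ligand of KIT, and HGF, the ligand of MET. The genes were chosen by name, and every non-control probe that carries one of the names was taken, which gave 75 of 42405 probes and 48 of 34809 gene names, or 194 of the 58717 non-control spots on each array. The samples were RNA of ACHN cells, a human renal cell carcinoma line, that had been transduced with a retroviral pBabe-hygro vector, either empty (ACHN-EV, arrays EV 1 to EV 4) or carrying the HOTAIR cDNA (ACHN-HOTAIR, arrays HOTAIR 1 to HOTAIR 3). HOTAIR is a long non-coding RNA of the HOXC locus. All cells therefore carried the vector, and the insert was what differed, with HOTAIR transcribed from the vector and not from its own locus. Each sample was labelled with Cy3 and hybridised to a SurePrint G3 Human GE array of its own. The sources do not say whether the samples of a group were separate cultures or separate transductions, so the p-values measure the spread between these samples, which may be technical.

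A receptor tyrosine kinase binds its ligand outside the cell, pairs with a further receptor and phosphorylates tyrosines on its own tail, where adaptors such as GRB2 dock and pass the signal to the RAS-ERK and PI3K-AKT pathways. MET and its ligand HGF drive the scattering and movement of epithelial cells, and MET is altered in the germline of families with papillary renal carcinoma. KIT and its ligand KITLG (stem cell factor) serve blood progenitors, mast cells, melanocytes and germ cells. In the kidney, KIT is used as a marker of chromophobe carcinoma and oncocytoma.

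The levels below are log2 intensities of a probe after subtraction of the 75th percentile of its array, so that a level of 0 is the brightness that 25% of the spots exceed, and levels of different probes are not set against each other. A probe is called detected where the scanner software marked it well above background. HOTAIR itself was not detected on the EV arrays (-6.29, -6.97, -6.42 and -7.07) and was detected on all HOTAIR arrays (-3.12, -3.24 and -2.58), which fits the labels. Limma gave HOTAIR an adjusted p of 0.00162. Arrays EV 2 and HOTAIR 3 stood apart from the others of their groups. On the first principal component (51.8% of the variance) EV 2 scored 74.0 against -18.1 to -8.50 for the other EV arrays, and HOTAIR 3 had 21.1 against -29.4 and -21.3. All EV arrays lay in one row of the slide and all HOTAIR arrays in the other, so the group and its row cannot be told apart. Of 12 markers of kidney epithelium and renal carcinoma, 10 were detected on all arrays, among them PAX8 and PAX2, while CDH1 (E-cadherin) and CA9 were not detected on any. Of 6 blood cell markers only CD14 was detected on all arrays.

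The sequences below are those of array probes on which the main results rest. Some members with several probes gave different answers with different probes, and whether the place of the probe in the transcript matters was not tested. KIT has 3 probes of 60 bases each, on the plus strand of chromosome 4 (hg19). The first, at chr4:55569965-55570024, starts at base 918 of the transcript, and another, at chr4:55593626-55593685, starts at base 1778. Both are in the coding part, and neither was detected on any array. The remaining probe, at chr4:55606511-55606570, starts at base 4805, in the 3′ untranslated region, and only its first 30 bases are given.
KIT, base 918: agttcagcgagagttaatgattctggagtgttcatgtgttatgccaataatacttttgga
KIT, base 1778: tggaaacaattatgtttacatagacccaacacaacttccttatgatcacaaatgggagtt
KIT, base 4805, first 30 bases: aaagtggttgttagttatagatgtctaggt
The probes of CSF1R (minus strand, chr5:149432861-149432920), MET (plus strand, chr7:116438290-116438349) and KITLG (minus strand, chr12:88886653-88886712) and both probes of EPHA7 (minus strand, chr6:93950480-93950539 and chr6:93951998-93952057) also lie in 3′ untranslated regions, and their first 30 bases follow.
CSF1R: atcctaactaacagtcacgccgtgggatgt
MET: gtgtctggacagattgtgggagtaagtgat
KITLG: gtgatgtgtatgtgtatatactgtatgtgt
EPHA7, base 5842: tactctcttccagaaagagatgagatggta
EPHA7, base 4324: ggggcagttcacaattttcaccatttaaac
The probes of FGFR4 (plus strand, chr5:176523121-176523180) and EPHA2 (base 2918 of the transcript) lie in the coding part. These are shown because their levels moved most on EV 2.
FGFR4: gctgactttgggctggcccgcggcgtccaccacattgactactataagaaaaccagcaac
EPHA2: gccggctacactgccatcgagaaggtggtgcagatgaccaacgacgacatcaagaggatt

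Of the 48 genes, 24 were detected on all 7 arrays, a share near that of all names on the array (15706 of 34809). The 24 genes include MET and MST1R, EGFR, ERBB2, the collagen receptor DDR1, the receptors AXL, TYRO3 and MERTK, FGFR1, FGFR3 and FGFR4, and 6 of the 10 ephrin receptors. KIT was detected on the HOTAIR arrays only. Another 4 genes (FGFR2, MUSK, NTRK3 and PDGFRA) were detected on some arrays of a group, and 19 on none. The comparison of ACHN-HOTAIR with ACHN-EV could be tested for 25 genes, those with a probe detected on every array of at least 1 group, and for a gene with several such probes the brightest stands for the gene.
No member passed an adjusted p of 0.05 by limma, where 0.18% of the 16664 genes tested passed. At an unadjusted p under 0.05 there were 5 of 25 members by limma (20%, against 6.11% of all genes tested), of which KIT, CSF1R, EPHA4 and MERTK were higher (4 genes, against 3.79% of all genes tested) and EPHA7 was lower in the ACHN-HOTAIR cells (1 gene, against 2.32%). The rank product, the method named by the study, called 1 member, KIT. Over all 20419 probes tested it called 49 higher and 33 lower. The 3 HOTAIR arrays lay on one side of all 4 EV arrays for 6 of 25 members (24%, against 8.05% of all genes tested). KIT, CSF1R, DDR1 and MERTK lay above (4 genes, where 4.43% of all genes tested did) and EPHA7 and KITLG below (2 genes, against 3.62%). KIT entered the test through its HOTAIR arrays alone, so its difference is in part fixed by that filter. The median log2 difference of the 25 was 0.037, beside 0.011 for all genes tested, and 21 of them differed by less than 0.5.

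**Figure D1:**
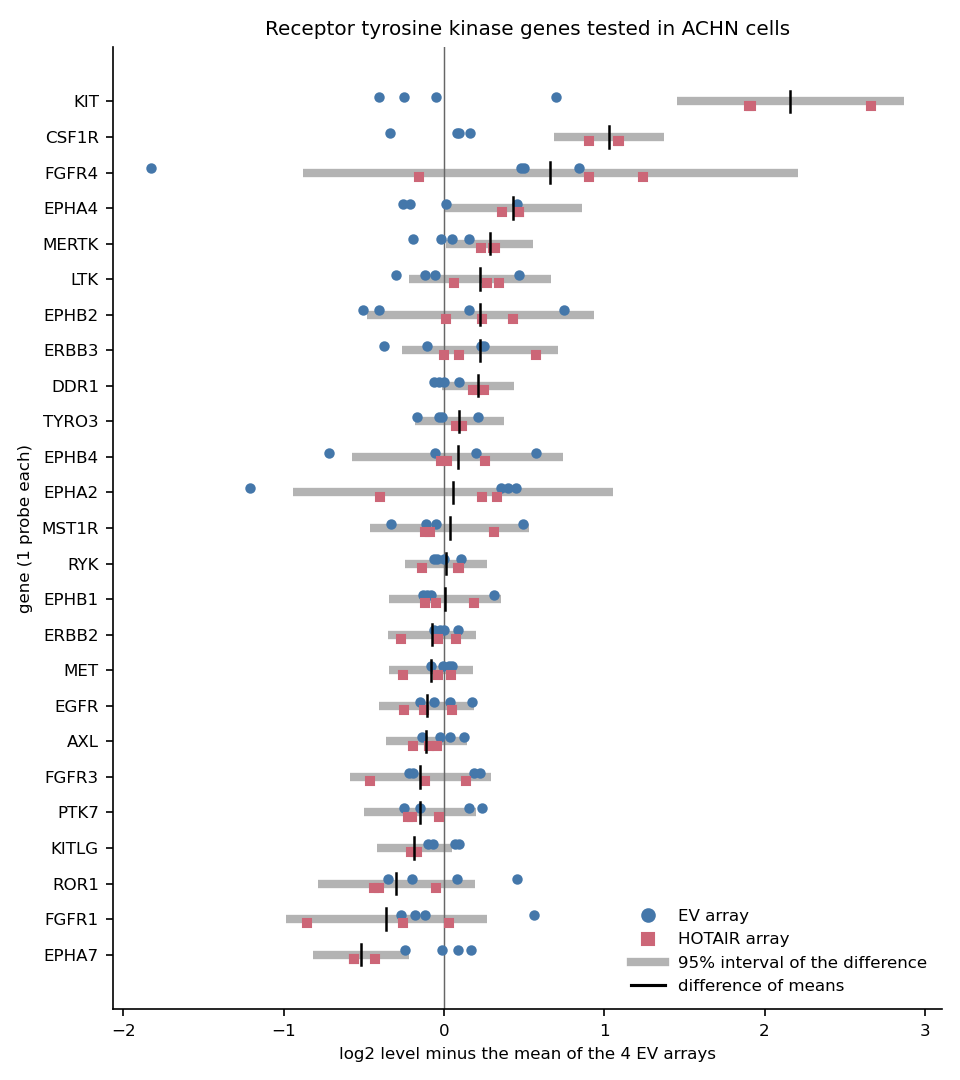
Levels of the 25 tested genes on each array, as the log2 level minus the mean of the 4 EV arrays (x axis), for 1 probe per gene (y axis, ordered by the difference). Blue circles are EV arrays, red squares HOTAIR arrays, black lines the differences of the group means and grey bars their 95% intervals. KIT (2.16) and CSF1R (1.03) lie farthest to the right and EPHA7 (-0.52) farthest to the left, and FGFR4 has the widest interval.

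KIT, CSF1R, PDGFRA, PDGFRB and FLT3 form one structural class, with immunoglobulin-like domains outside the cell and a kinase domain split by an insert. The 3′ probe of KIT had -7.12, -6.01, -6.76 and -6.96 on EV 1 to EV 4 and -4.80, -4.81 and -4.05 on HOTAIR 1 to HOTAIR 3. All HOTAIR arrays lay above all EV arrays, and within each group the array that stood apart, EV 2 or HOTAIR 3, was the highest. The log2 difference was 2.16 (SE 0.30, 95% interval 1.45 to 2.87), with an adjusted p of 0.0678 by limma and a two-sided exact permutation p of 0.0286, the smallest that 3 arrays against 4 allow. The probe entered the test through the HOTAIR arrays alone. The interval and these p-values are thus in part fixed by that filter and give no independent support. Because KIT was not detected on any EV array, its fold was taken against a floor. On each EV array the floor was the higher of the probe's own level and the lowest level among detected probes. The HOTAIR mean (-4.55) was 3.15-fold higher than this floor, while the measured EV mean was -6.71. Probes that were not detected could lie above the floor, as EPHB3 did on EV 2 (-5.34) and MUSK on EV 3 (-5.44). The 3.15-fold is therefore not a lower bound. With normexp background correction the fold against the floor was 1.24 and the log2 difference 0.37. In bulk RNA of this kind, fewer cells that express a gene and less RNA per cell cannot be told apart.
The 3′ probe of KIT is spotted 10 times on the array, which shows how the signal sits against the background within each array. After outlier spots were left out, 0 of 37 EV spots and 25 of 30 HOTAIR spots were well above background, the latter being 8 of 10 on HOTAIR 1, 7 of 10 on HOTAIR 2 and 10 of 10 on HOTAIR 3. The SD between the spots of an array ranged from 0.17 to 0.61, and the spots share 1 RNA sample, so they are no replicates of a condition. The 2 coding probes of KIT had levels from -7.57 to -6.82 on the EV arrays and from -7.64 to -7.27 on the HOTAIR arrays. Neither was detected on any array, so the higher level in the ACHN-HOTAIR cells rests on the 3′ probe alone. The adjusted p of KIT was 0.0227 without EV 2 (log2 difference 2.40) and between 0.177 and 0.306 without any other single array, so EV 2 was the only single array without which KIT passed.

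CSF1R, the receptor of CSF1 and IL34 on monocytes and macrophages, was the other gene of the class that was tested. It was detected on every array, with -3.95, -4.45, -4.04 and -4.02 on the EV arrays and -3.03, -3.02 and -3.21 on the HOTAIR arrays. The groups did not overlap, and the gap between them was wider than either group's range. CSF1R was 2.04-fold higher in the ACHN-HOTAIR cells (95% interval 1.61 to 2.59), with a log2 difference of 1.03 (SE 0.15), an adjusted p of 0.0700 by limma and an exact permutation p of 0.0286. Of its spots, 37 of 38 were well above background on the EV arrays and 29 of 29 on the HOTAIR arrays. Without EV 2, the lowest EV array, the log2 difference was 0.92 and the adjusted p 0.0446 by limma. Without any other single array the adjusted p was between 0.154 and 0.427. With normexp background correction the difference was 0.39 (adjusted p = 0.359). CSF1, its ligand, was detected on every array with a log2 difference of 0.21 (adjusted p = 0.946), and IL34 was not detected on any. KIT and CSF1R are also genes of blood cells, and blood cell markers were therefore read beside them. CD14 had a log2 difference of 0.12 (adjusted p = 0.993), the brightest probe of PTPRC was detected on 2 EV arrays and 1 HOTAIR array, and CD3E and HBB were not detected. The part of other cells in the levels of KIT and CSF1R was not tested further.

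**Figure D2:**
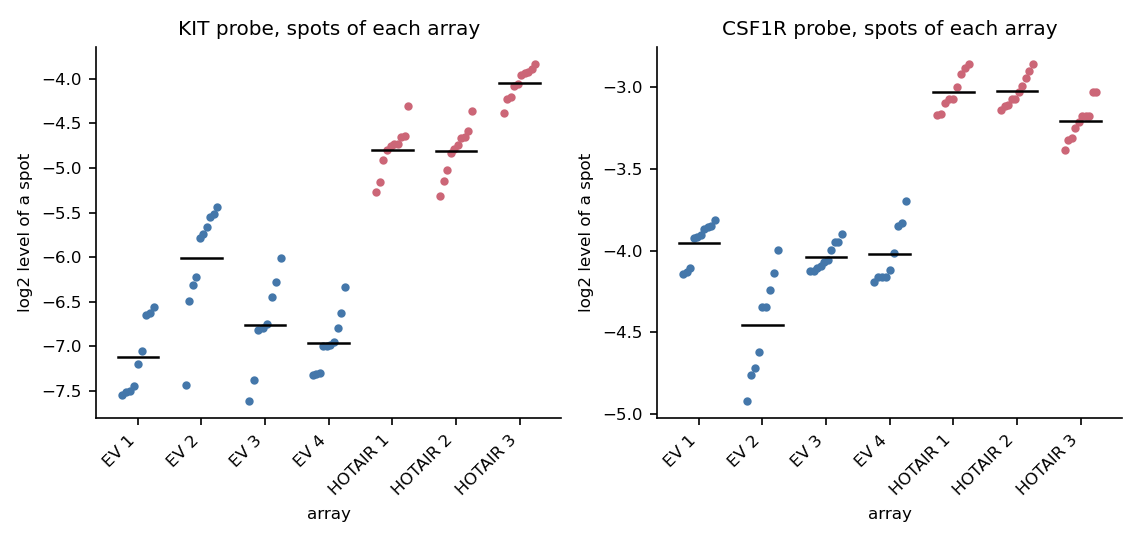
Log2 levels (y axis) of the single spots of the 3′ probe of KIT and of the CSF1R probe on each array (x axis), with EV arrays in blue, HOTAIR arrays in red and the mean of each array as a black line; spots of an array are drawn in order of level. The lowest KIT spot of any HOTAIR array lies above the highest KIT spot of every EV array, although by little against EV 2, and the same holds for CSF1R.

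The platelet-derived growth factor receptors serve mesenchymal cells and pericytes. PDGFRA, which lies next to KIT, had -7.59, -7.09, -7.52 and -7.28 on the EV arrays and -5.19, -7.29 and -6.16 on the HOTAIR arrays. It was detected on 2 of 3 HOTAIR arrays and on no EV array, HOTAIR 2 lay within the EV range, and the gene was not tested. PDGFRB, next to CSF1R, had -7.62, -7.00, -7.48 and -7.01 on the EV arrays and -6.69, -6.55 and -5.86 on the HOTAIR arrays. Its HOTAIR values all lay above its EV values, yet it was not detected on any array. Among the 23 members that were not tested it was the only one without overlap (4.35%, against 2.65% of all genes not tested that lay higher without overlap). FLT3, a receptor of blood progenitors, was not detected and ranged from -7.55 to -7.06 on the EV arrays and from -7.13 to -6.78 on the HOTAIR arrays. Of 6 fibroblast and pericyte markers, which PDGFRA and PDGFRB would accompany, only RGS5 was detected on all arrays, with a log2 difference of -0.30 (adjusted p = 0.770), and COL1A1, COL1A2, COL3A1, DCN and LUM were not detected on any.

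In the RefSeq gene order of GRCh38.p14, PDGFRA, KIT and KDR lie side by side on chromosome 4, and PDGFRB is the next protein-coding gene after CSF1R on chromosome 5. KDR, the main receptor of VEGFA on endothelium, was not detected on any array. Of 14 genes around KIT, 9 were tested and 6 of them, all but KIT, NMU and CHIC2, had negative differences (5 to 7 of 9 under the other background correction and scalings). NMU, which encodes the peptide neuromedin U, had a log2 difference of 0.56 (adjusted p = 0.504), and CHIC2 had 0.014. Without NMU and KIT, the genes tested around KIT had differences between -0.29 and 0.014.

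**Figure D3:**
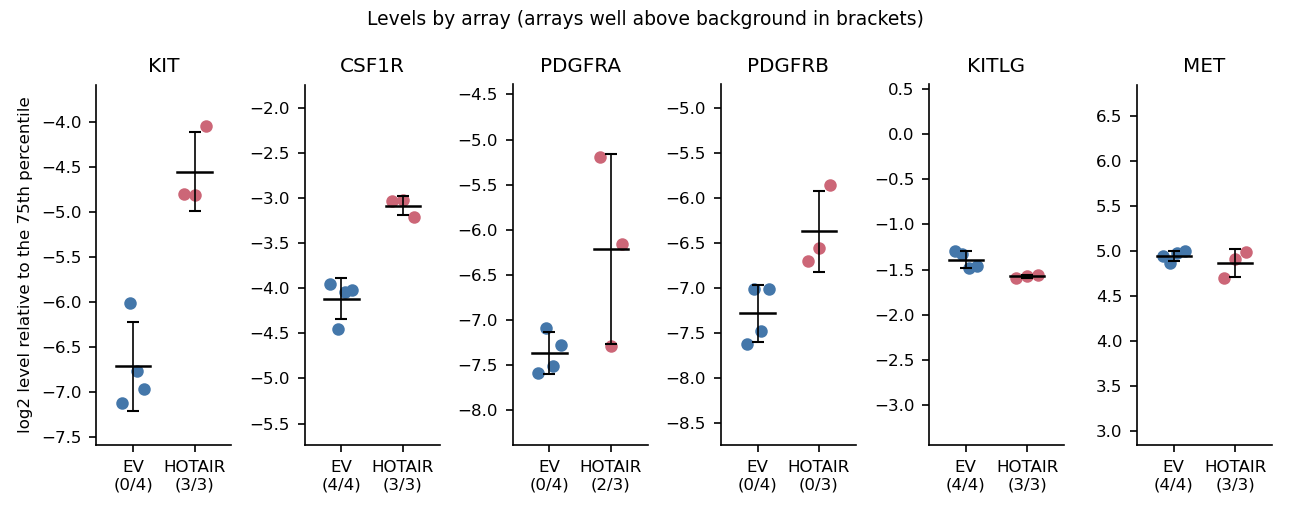
Log2 levels relative to the 75th percentile of the array (y axis, the same span in each panel) of KIT, CSF1R, PDGFRA, PDGFRB, KITLG and MET on the EV (blue) and HOTAIR (red) arrays, with means as black lines, SDs as bars and the number of arrays on which the probe was detected in brackets. KIT and CSF1R separate the groups, PDGFRA is raised on 2 of 3 HOTAIR arrays, and KITLG and MET stay within a narrow band.

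KITLG was detected on every array, so both sides of the pair were measured. It had -1.30, -1.32, -1.49 and -1.46 on the EV arrays and -1.60, -1.58 and -1.56 on the HOTAIR arrays. The HOTAIR arrays lay just below the EV arrays, with a log2 difference of -0.18 (SE 0.10, 95% interval -0.42 to 0.052, adjusted p = 0.932 by limma). 

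MET was detected on every array with 4.95, 4.87, 4.98 and 5.00 on the EV arrays and 4.70, 4.91 and 4.99 on the HOTAIR arrays. The groups overlapped, and the spread of the HOTAIR arrays came from HOTAIR 1. The log2 difference was -0.081 (SE 0.11, 95% interval -0.34 to 0.18, adjusted p = 0.993 by limma), and its interval spans folds from 0.789 to 1.13. Without HOTAIR 1 the difference was 0.0040. HGF was not detected with either of its 2 probes on any array, from -7.57 to -7.12 on the EV arrays and from -7.57 to -6.86 on the HOTAIR arrays. MST1R (RON), the receptor most like MET, had a log2 difference of 0.037 (adjusted p = 0.994), and its ligand MST1 had -0.35 (adjusted p = 0.878). HGFAC, a protease that activates HGF, and SPINT1 and SPINT2, its inhibitors, were detected on all arrays, and none of them passed the test. Of 11 genes around MET on chromosome 7, 7 were tested and 0 passed or had an unadjusted p under 0.05 by limma, with a median log2 difference of -0.12 and CAV1, the gene before MET, at -0.15.

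The ERBB family was measured through 3 of its 4 receptors. EGFR, the receptor of EGF and TGFA, had a log2 difference of -0.11 (95% interval -0.40 to 0.19, adjusted p = 0.993) with its brightest probe, which is annotated to the full-length transcript. ERBB2, a partner receptor with no known ligand of its own, had -0.075 (95% interval -0.35 to 0.20). ERBB3, a neuregulin receptor with a weak kinase, had 0.22 (95% interval -0.26 to 0.71) with a probe of a short transcript, while its probe for the 3′ end of the full-length transcript was detected on 3 EV arrays and 1 HOTAIR array. ERBB4 was not detected. All these intervals hold 0, and the intervals of EGFR and ERBB2 lie within a log2 difference of 0.5.

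The ephrin receptors, which read contact with neighbouring cells, held both the lowest difference and one of the higher ones. EPHA7 had -2.54, -2.35, -2.44 and -2.76 on the EV arrays and -2.95, -3.08 and -3.08 on the HOTAIR arrays with its brightest probe. Its other probe had -3.49, -3.86, -3.75 and -4.09 on the EV arrays and -4.30, -4.20 and -4.13 on the HOTAIR arrays. With either probe all HOTAIR arrays lay below all EV arrays. The differences of the group means were -0.52 (SE 0.13, 95% interval -0.81 to -0.22, adjusted p = 0.354 by limma) and -0.41 (SE 0.15, adjusted p = 0.753), and neither passed. EPHA4 had a log2 difference of 0.43 (95% interval 0.0089 to 0.86, adjusted p = 0.838), and its EV 2 level of -1.87 lay within the range of the HOTAIR arrays, -1.96 to -1.85. EPHA2, a receptor common in carcinoma cells, had 0.057 (95% interval -0.94 to 1.06), since EV 2 lay at -0.72 and the other EV arrays between 0.85 and 0.94. With their brightest probes EPHB1 had 0.0072, EPHB4 0.086 and EPHB2 0.23, with adjusted p-values of 0.993 or above. The other tested probes of EPHB2 gave larger differences. The probe at base 3709 had 0.26, -0.034, 0.28 and 0.25 on the EV arrays and 0.71, 0.59 and 0.46 on the HOTAIR arrays, so that the groups did not overlap. Its log2 difference was 0.40 (adjusted p = 0.610), that of the probe at base 3349 was 0.56 (adjusted p = 0.939), and neither passed. EPHA3, EPHA5, EPHB3 and EPHB6 were not detected on any array.

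Among the receptors that bind GAS6 and PROS1 and help clear dying cells, MERTK had -4.25, -4.49, -4.15 and -4.32 on the EV arrays and -4.07, -3.99 and -4.00 on the HOTAIR arrays. The HOTAIR arrays lay just above the EV arrays, with a log2 difference of 0.29 (SE 0.12, 95% interval 0.016 to 0.55, adjusted p = 0.809 by limma). The difference of MERTK was 0.050 with normexp background correction and 0.15 with quantile normalization. AXL had -0.11 (95% interval -0.36 to 0.14) and TYRO3 0.097 (95% interval -0.18 to 0.37), both with an adjusted p of 0.993. DDR1, a collagen receptor of epithelial cells, had -0.73, -0.80, -0.64 and -0.77 on the EV arrays and -0.53, -0.56 and -0.48 on the HOTAIR arrays. Its groups did not overlap either, and limma gave a log2 difference of 0.21 (SE 0.097, 95% interval -0.013 to 0.44, adjusted p = 0.889). DDR2, the collagen receptor of mesenchymal cells, was not detected.

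With their tested probes, the fibroblast growth factor receptors varied more between arrays of 1 group than between the groups. FGFR1 had 1.29, 2.12, 1.38 and 1.45 on the EV arrays and 0.71, 1.31 and 1.59 on the HOTAIR arrays with its brightest probe, and the other tested probe had -0.42, 0.27, -0.39 and -0.25 on the EV arrays and -0.087, -0.17 and -0.12 on the HOTAIR arrays. EV 2 was the highest array with both probes. The log2 differences, -0.36 (adjusted p = 0.983) and 0.073 (adjusted p = 0.993), had opposite signs. With the brightest probe the difference ranged from -0.55 without HOTAIR 3 to -0.11 without HOTAIR 1. A further FGFR1 probe, at base 2025, was detected on 1 HOTAIR array and no EV array and was not tested. It had -6.97, -6.78, -6.79 and -6.58 on the EV arrays and -5.70, -6.34 and -5.58 on the HOTAIR arrays, so that the groups did not overlap. FGFR3 had -0.15 (adjusted p = 0.993). FGFR4 had -2.68, -5.34, -3.02 and -3.03 on the EV arrays and -2.28, -2.61 and -3.67 on the HOTAIR arrays, with a log2 difference of 0.66 and a 95% interval from -0.88 to 2.21. FGFR2 was detected on 2 EV arrays and 2 HOTAIR arrays, with -4.80, -4.61, -5.29 and -5.32 on the EV arrays and -5.07, -5.19 and -5.19 on the HOTAIR arrays, and was not tested.

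The Wnt-related receptors ROR1, PTK7 and RYK were detected on all arrays, and none of them passed. Their log2 differences were -0.30 for ROR1 (95% interval -0.79 to 0.20), -0.15 for PTK7 (95% interval -0.50 to 0.20) and 0.014 for RYK (95% interval -0.24 to 0.27). ROR1 gave the same sign with each of its 3 probes, with -0.11 and -0.14 for the other 2. LTK, the receptor most like ALK, had 0.23 (95% interval -0.22 to 0.67, adjusted p = 0.993). MUSK, the receptor through which agrin builds the neuromuscular junction, had -5.62, -6.47, -5.44 and -6.08 on the EV arrays and -4.77, -6.51 and -5.80 on the HOTAIR arrays and was detected on 1 HOTAIR array. NTRK3, a neurotrophin receptor, was detected on 1 HOTAIR array with each of 2 of its 4 probes, with -5.14 on HOTAIR 1 and -6.26 on HOTAIR 3. Its brightest probe was not detected, with -6.32, -5.86, -5.38 and -5.64 on the EV arrays and -6.34, -5.74 and -5.40 on the HOTAIR arrays.
The receptors that were not detected on any array include those of endothelium (FLT1, KDR, FLT4, TEK and TIE1), which bind vascular endothelial growth factors or angiopoietins, and those of neurons (NTRK2, RET and ALK). ROR2 and ROS1 were not detected either. The probes of these receptors lay at or near the background of the scanner, and a probe that is not detected gives only an upper limit on its transcript.

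**Figure D4:**
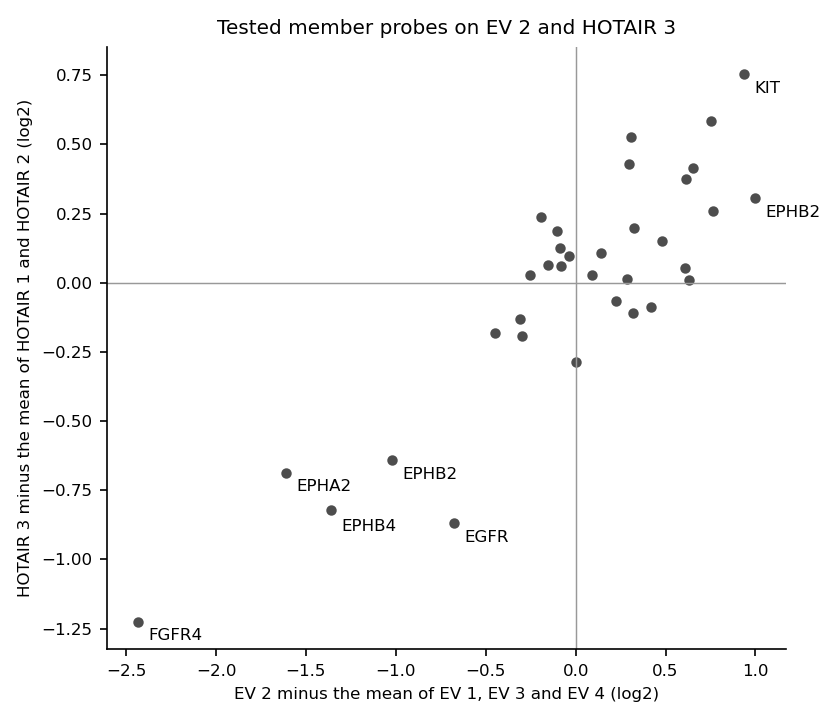
Each point is 1 of 34 tested probes, with its level on EV 2 minus the mean of the other EV arrays (x axis, log2) and its level on HOTAIR 3 minus the mean of the other HOTAIR arrays (y axis, log2). FGFR4 lies lowest on both arrays (-2.43 and -1.23) and KIT lies highest on HOTAIR 3 (0.75), and probes of EPHB2 lie on both sides of 0 on the x axis.

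The arrays that stood apart touched these genes unequally. Of the 34 tested probes, 13 lay over 0.5 from the other EV arrays on EV 2 and 8 lay over 0.5 from the other HOTAIR arrays on HOTAIR 3, and 23 moved in the same direction on both. Relative to the other arrays of the group, FGFR4 lay at -2.43 on EV 2 and at -1.23 on HOTAIR 3, EPHA2 at -1.61 and -0.69, and KIT at 0.93 and 0.75. Probes of the same gene could differ, since EPHB4 lay at -1.36 on EV 2 with the probe at base 3312 of the transcript and at 0.76 with the probe at base 3947. EPHB2 lay at 1.00 with the probe at base 3086, at -1.02 at base 3349 and at -0.30 at base 3709. The part of these arrays in the differences was measured only by leaving them out. With EV 2 and HOTAIR 3 both left out, the log2 difference of KIT was 2.14 (adjusted p = 0.0146 by limma) and that of EPHA2 was -0.12.

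Of the genes of the pathway lists and of those around KIT and MET, members left out, none of 119 tested passed an adjusted p of 0.05 by limma. Of the 119, 6 had an unadjusted p under 0.05 by limma, where 6.11% of all genes tested did. Among 51 ligands, 34 were tested, with 14 higher and 20 lower, a median log2 difference of -0.028 and 4 at an unadjusted p under 0.05 (11.8%, against 6.11% of all genes tested). Of these 4, the largest differences were those of FGF7, NRG2 and BTC. FGF7, a ligand of FGFR2, was detected on all EV arrays and no HOTAIR array (adjusted p = 0.398 by limma). It was 1.55-fold lower against a HOTAIR floor made as for KIT, which is likewise not a lower bound. NRG2, a neuregulin, had 0.50 (adjusted p = 0.634), and BTC, a ligand of EGFR and ERBB4, had 0.36 (adjusted p = 0.815). FGF7 entered the test through its EV arrays alone, so its difference is in part fixed by that filter. Of 12 further receptor kinases 5 were tested, IGF1R among them with -0.12 (adjusted p = 0.993), and 0 had an unadjusted p under 0.05. The 33 adaptors and effectors tested had a median of -0.020 and the 19 inhibitors and feedback genes (with HGFAC, an activator, counted among them) one of -0.019, and 0 genes of either list had an unadjusted p under 0.05. The deposited intensities without scaling turned both medians and that of the ligands positive, at 0.024, 0.024 and 0.015.
Genes that ERK signalling is known to switch on were tested as the far end of the pathway. Of 14 such genes, 13 had positive differences, where 8739 of all 16664 genes tested did. The median log2 difference of the 14 was 0.16, beside 0.011 for all genes tested. The count was 13 of 14 under each background correction and scaling tried, with medians from 0.12 to 0.20. It was not taken with EV 2 or HOTAIR 3 left out. Only DUSP4, a phosphatase that switches ERK off, had an unadjusted p under 0.05 by limma (1 of 14 genes, 7.14%, against 6.11% of all genes tested). DUSP4 had -3.66, -3.59, -3.82 and -3.61 on the EV arrays and -3.36, -3.31 and -3.23 on the HOTAIR arrays. Its log2 difference was 0.37 (adjusted p = 0.505). DUSP6 had 0.13 and MYC, the 1 gene with a negative difference, had -0.086.

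**Figure D5:**
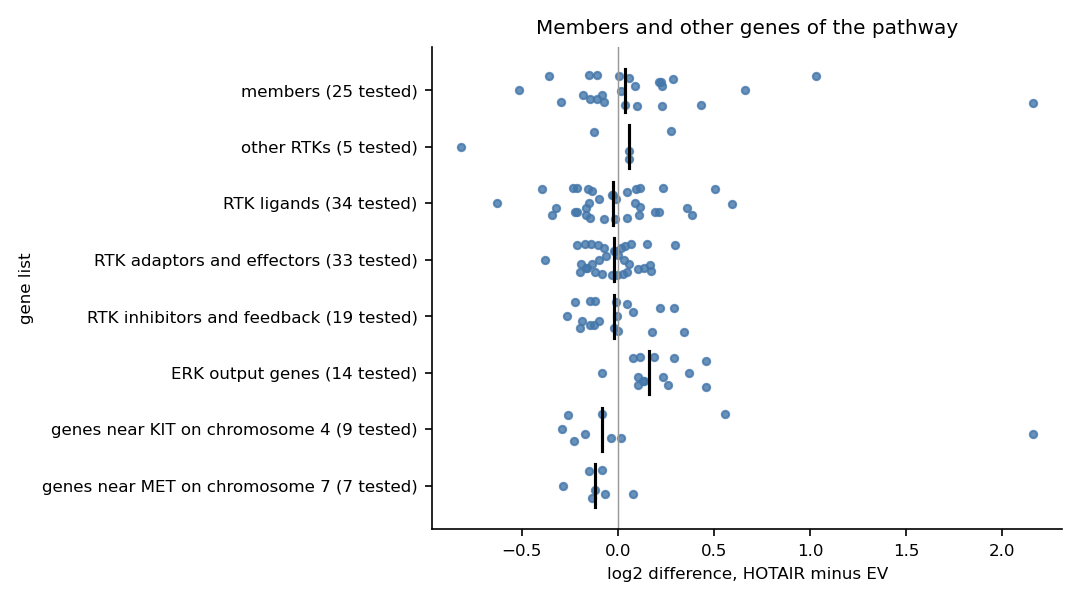
Log2 differences between ACHN-HOTAIR and ACHN-EV cells (x axis) of the tested genes of each list (y axis), 1 point per gene and the median as a black line; the height of a point within its list has no meaning. All medians lie between -0.12 and 0.16, KIT is the point at 2.16 in the lists that hold it, and the ERK output genes have 1 point below 0.

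The promoters of KIT and CSF1R, the genes with the highest differences, were set side by side in their content of the dinucleotide CG, the target of DNA methylation in mammals. RefSeq promoter windows of GRCh38.p14 (250 bases before to 50 bases after a start) were matched for 45 of 48 genes. CG was counted on the plus strand of each window, and reads the same on the other strand. A gene with several starts was counted by its window with the most CG. The KIT window holds 38, and 11.7% of the 27305 genes in the table hold at least as many, while the CSF1R window with the most holds 8, which 62.4% of genes reach. CSF1R has another start, not printed here, whose window holds 4, which 76.2% of genes reach. Which start the ACHN cells use was not tested. The 250 bases before the start are printed with each CG in capitals, KIT at chr4:54657707-54657956 on the plus strand and CSF1R at chr5:150113366-150113615 on the minus strand.
KIT: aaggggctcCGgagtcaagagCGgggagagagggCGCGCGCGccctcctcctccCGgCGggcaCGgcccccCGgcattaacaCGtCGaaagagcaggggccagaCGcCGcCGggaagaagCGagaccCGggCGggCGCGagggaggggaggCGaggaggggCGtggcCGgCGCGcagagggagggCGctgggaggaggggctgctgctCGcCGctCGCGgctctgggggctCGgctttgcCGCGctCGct
CSF1R: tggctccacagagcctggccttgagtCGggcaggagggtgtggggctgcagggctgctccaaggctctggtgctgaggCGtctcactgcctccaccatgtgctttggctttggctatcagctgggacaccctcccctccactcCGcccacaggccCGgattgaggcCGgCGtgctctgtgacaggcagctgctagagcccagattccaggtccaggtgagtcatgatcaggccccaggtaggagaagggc
The 2 genes thus differ in this feature. Over the members, the median was 32 for the 23 tested genes with a window (from 8 to 51) and 24 for the 22 genes not tested (from 1 to 52), against 16 for all genes. These counts describe the sequence, and methylation was not measured.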

How the data were processed

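RNA of 4 ACHN-EV and 3 ACHN-HOTAIR samples was profiled on single-colour arrays. The authors extracted the images with Agilent Feature Extraction 10.7.3.1 (submitters' processing notes) and deposited, per spot, a background-subtracted processed intensity, the raw intensity, its local background, and calls of outliers and of signal over background, with no scaling between arrays. The deposited value table holds the same intensities, 62969 rows within 0.498% of the scanner values. Its scale is therefore linear. Replicates were not pooled. The array annotation is on hg19.

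With R 4.3.3 and limma 3.58.1, processed intensities were log2-transformed, the 75th percentile over non-control spots was subtracted, outlier spots (408 to 600 per array) were left out and spots of a probe were averaged. That percentile lay at intensities between 523 and 649, and the share of probes detected ranged from 48.7% to 52.1%; 0 spots were saturated, and the number of arrays limits the precision. HOTAIR was compared with EV by limma (lmFit, eBayes, no covariate) over 20419 probes detected on all arrays of at least 1 group, with Benjamini-Hochberg adjustment over all of them, and single genes also by a two-sided exact permutation test over the 35 splits of the arrays. All adjusted p-values are from limma. In all, 34 probes passed an adjusted p of 0.05. The study names the rank product (12 comparisons of arrays, 100 permutations here) and the Mann-Whitney U test, whose smallest exact p is 0.0571 here; both were alternatives. Other alternatives were normexp background correction (offset 50), other scalings, filters and moderation, array weights, a replicate block, the mean over a gene's probes and arrays left out. The comparison was tested on simulated data.

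Named with values per array were KIT, MET, their ligands, members whose groups did not overlap, members detected on some arrays, and members whose tested probes differed in sign by over 0.3; of the other lists, genes called and the largest at an unadjusted p under 0.05. Any other named gene was picked with its values known. The members and lists were chosen with earlier results of these data known. Promoter windows and gene order come from RefSeq tables of GRCh38.p14.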

Additional observations from a re-analysis of the deposited data

Results flagged for a closer look

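In 4 of the 25 tested genes 1 EV array lay far from the other 3, by a gap that chance would give in 5% of groups, or about 1.25 of 25. The array was EV 2 in all 4. As a share of the range over the EV arrays, its gap to the nearest array was 0.945 for EPHA2, 0.882 for EPHB1, 0.865 for FGFR4 and 0.831 for CSF1R. EV 2 was the lowest EV array for EPHA2 (-0.72), FGFR4 (-5.34) and CSF1R (-4.45) and the highest for EPHB1 (-1.01). Without EV 2 the log2 difference was -0.35 for EPHA2, 0.11 for EPHB1, 0.054 for FGFR4 and 0.92 for CSF1R.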

How the results depend on the processing

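The number of members called, 0 by limma, became 1 with the deposited table without scaling, 1 by the rank product and 1 with EV 2 and HOTAIR 3 both left out (KIT in each), and 4 with array weights (KIT, CSF1R, EPHA4 and EPHA7). With single arrays left out it ranged from 0 to 2, the 2 being KIT and CSF1R without EV 2. KIT passed at log2 differences of 2.20 in the deposited table, 2.14 without both arrays and 2.10 with weights, and at 2.16 by the rank product (pfp 0.000769), and stayed within 1.91 to 2.40 with single arrays left out. Its adjusted p ranged from 0.00159 to 0.690 over all limma settings, and it has no value where only probes detected on all arrays are kept. In the settings where KIT passed, its probe had entered through the HOTAIR arrays alone, so these passes give no independent support. The pathway lists and the genes around KIT and MET gave 3 calls with array weights (DUSP4, NRG2 and, near KIT, NMU) and 0 in the other limma settings. MET stayed between -0.14 and 0.0040 with single arrays left out, and turned positive without HOTAIR 1 only.

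Differences near 0 changed sign. With single arrays left out the ranges were -0.35 to 0.29 for EPHA2, -0.084 to 0.11 for EPHB1, -0.15 to 0.28 for EPHB4, -0.15 to 0.020 for ERBB2, -0.29 to 0.010 for FGFR3, -0.10 to 0.20 for MST1R and -0.025 to 0.089 for RYK. EPHA2 was -0.12 without EV 2 and HOTAIR 3 and -0.14 with weights, and ERBB2 was 0.021 and 0.020. EPHB1 was -0.0090 with normexp, -0.0069 with quantile normalization and -0.0070 with median scaling, TYRO3 was -0.034 with normexp, MST1R was -0.017 with quantile normalization and RYK was -6.99e-06 with median scaling. None of these passed in any setting, and the causes were not tested. Without a change of sign, single arrays moved FGFR1 to between -0.55 and -0.11, FGFR4 to between 0.054 and 1.07, EPHB2 to between 0.059 and 0.48, ERBB3 to between 0.048 and 0.34 and ROR1 to between -0.42 and -0.14, and none passed.

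The labels do not say whether replicate numbers pair the arrays. The deviations of same-numbered arrays correlated at 0.386, -0.368 and -0.406, and those of EV 2 and HOTAIR 3, the arrays that stood apart, at 0.619. Since EV 2 and HOTAIR 3 enter the pairs with negative values, the correlations cannot settle whether the arrays are paired. With the replicate number as a block, 0 probes were called in all (1073 at an unadjusted p under 0.05), KIT had 2.08 (adjusted p = 0.460), and EPHB1, EPHB4, MST1R and RYK were -0.019, -0.15, -0.073 and -3.3e-05. Over all probes, limma called 34, against 12 with normexp, 14 without a filter, 22 with only probes detected on all arrays, 20 with trend and robust moderation, 14 without EV 2 and HOTAIR 3, 324 with array weights and 9 to 31 with single arrays left out, and the rank product called 82. Of all settings, normexp moved KIT most, to 0.37.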
